A study of Mus musculus with 2 samples.

Results

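The genes described here encode the proximal T cell receptor (TCR) signalling machinery: the CD3 chains that carry the signal into the cell, the kinases and adaptors that relay it at the membrane, the enzymes it switches on and the proteins that damp it. They were taken as a list of 36 genes by symbol, and 35 of them were named on the array, of 18193 genes in all. Lck was not analysed here. A gene's value is that of the probe set with the highest mean log2 signal, called the brightest here. The series held 2 arrays, 1 of T helper 2 (Th2) cells from Ecm1 knockout (KO) mice and 1 of Th2 cells from wild-type (WT) mice, both C57BL/6 and described as female and 6 weeks old. Spleen CD4+ cells, bound by anti-CD4 antibody and separated on magnetic columns, were held in Th2 culture for 4 days. The receptor stimulus was 3 µg/ml of anti-CD3 bound to the plate with 2 µg/ml of anti-CD28 in solution, and the Th2 agents were IL-4 at 10 ng/ml (a unit garbled in the labels) and antibodies to IFN-γ and IL-12 at 10 µg/ml each. Both groups thus received the same receptor stimulus, and Ecm1, a secreted matrix glycoprotein, was the labelled difference. The sources used here do not say how the Ecm1 allele was made or how many animals gave cells to each array. Precision is limited by the number of arrays: there was no replicate, no difference below carries a test or a p-value, and each describes these 2 arrays only.

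When a TCR meets its ligand, Src-family kinases phosphorylate tyrosine motifs in the tails of the CD3 and zeta chains, and ZAP-70 docks there. ZAP-70 then phosphorylates LAT and SLP-76, which assemble phospholipase C-γ1, Vav proteins and other enzymes into a complex that opens the calcium, Ras and NF-κB routes. Phosphatases, ubiquitin ligases, lipid kinases and inhibitory adaptors set the threshold and end the signal. In CD4 T cells the strength of this signal is known to bear on Th2 differentiation.

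The arrays differed in the targeted gene, with an Ecm1 signal of 19.3 in KO cells, below the floor, against 29114.7 in WT cells, at least 414-fold lower. The floor was the median signal of each array (65.5 in KO, 69.2 in WT). Some features went against the labels. Y-linked Eif2s3y read 2214.4 in KO cells and 25.0 in WT cells although the mice are described as female, and the 3 Xist probe sets read between 38.7% and 48.0% of WT on the KO array. The sample descriptions name liver, yet 10 of 11 hepatocyte markers were below the floor on both arrays, with albumin (Alb) at 24.1 in KO and 4.8 in WT. Sex of the animals and genotype cannot be told apart here.

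As a group, proximal TCR genes were lower in KO cells. The list was chosen with earlier results of these data known, so its contrast with all genes is a description only. All log2 differences below are KO minus WT, centred on the median of all probe sets that reached the floor on both arrays, called measured here, and fold differences are taken after that centring. Among the 34 measured members, 12 were lower by 2-fold or more, 1 was higher by 2-fold or more and 21 were neither, and 31 of the 34 lay below 0. Over all 10144 measured genes, the share lower by 2-fold or more was 4.45% and the share higher by as much was 7.15%, while 46.9% lay below 0. The members' median was -0.76 (quartiles -1.20 and -0.58), against 0.04 for all genes (quartiles -0.33 and 0.43). Within the list the values ran from -2.64 for Trat1 to 1.18 for Vav3. From the 2 brightest probe sets of 4657 genes, the technical SD of a single probe set was 0.36 on the log2 scale. It was the SD of their difference divided by the square root of 2, and it leaves out animal, culture and array error. In bulk RNA, fewer T cells and less RNA per T cell cannot be told apart.

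**Figure D1:**
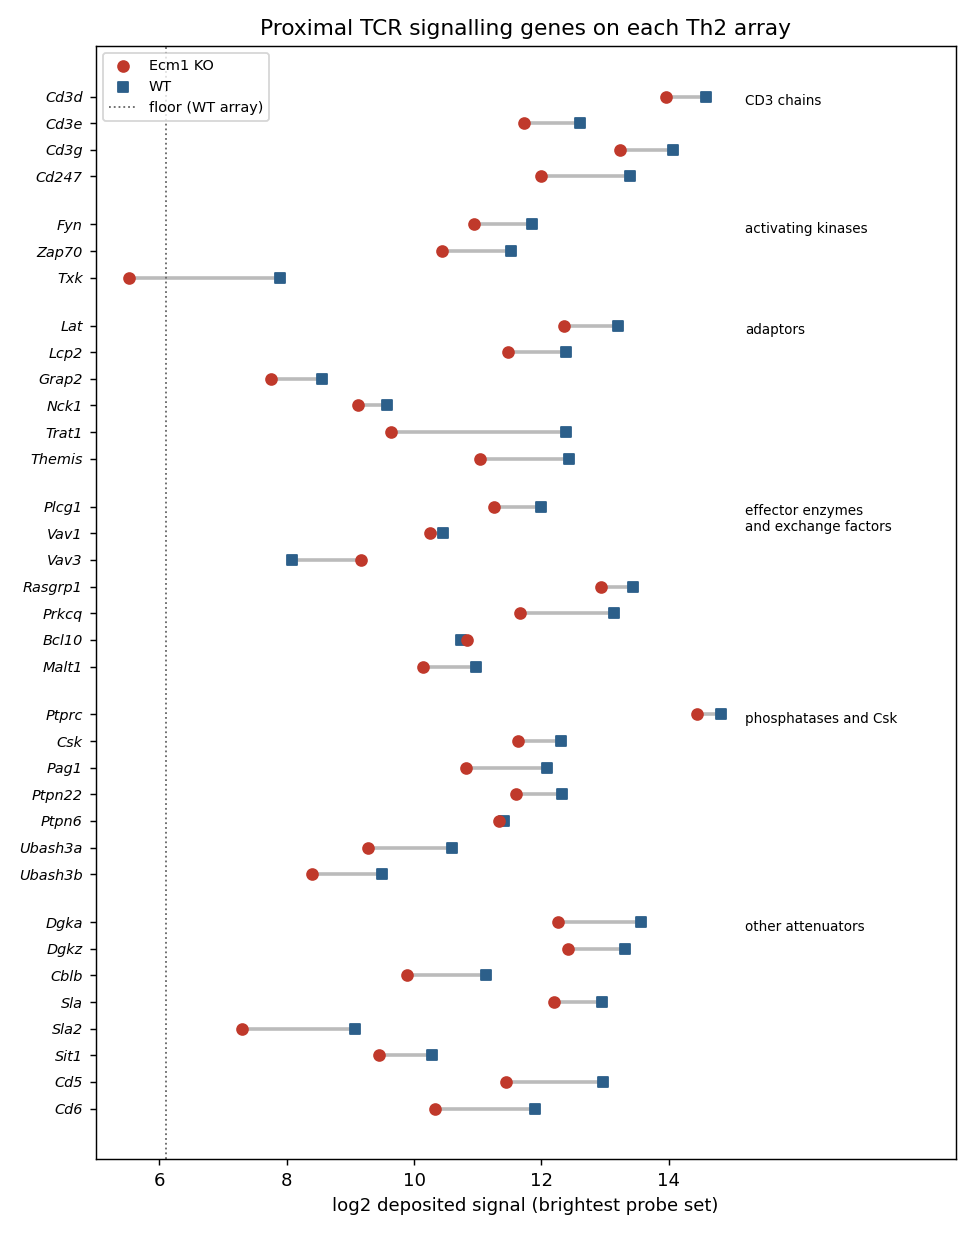
Log2 deposited signal of the brightest probe set of each of 35 members (horizontal axis) on the Ecm1 KO array (red circles) and the WT array (blue squares), with members grouped by role down the page; levels are not comparable between genes. The KO circle lies left of the WT square for every member except Vav3 and Bcl10, and Txk falls below the floor (dotted line) in KO cells.

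Start-site sequences are shown for 4 members, since most of the list lay on the same side of 0 while its members differed in size: the receptor chains Cd3e and Cd247, the adaptor Trat1 with the largest difference, and the inhibitory receptor Cd5. Each sequence runs 5′ to 3′ from 250 bases before to 50 bases after the RefSeq start (build GRCm38.p6). Capitals mark AGGAAG, a core of ETS-family binding motifs, on either strand.
Cd3e (chr9:45009562-45009861, minus strand): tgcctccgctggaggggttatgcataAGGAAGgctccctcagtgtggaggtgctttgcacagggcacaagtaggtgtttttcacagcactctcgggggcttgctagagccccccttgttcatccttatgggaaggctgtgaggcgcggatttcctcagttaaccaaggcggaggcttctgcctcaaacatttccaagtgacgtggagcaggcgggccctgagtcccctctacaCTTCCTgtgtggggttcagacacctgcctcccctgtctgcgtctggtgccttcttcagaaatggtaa
Cd247 (chr1:165788431-165788730, plus strand): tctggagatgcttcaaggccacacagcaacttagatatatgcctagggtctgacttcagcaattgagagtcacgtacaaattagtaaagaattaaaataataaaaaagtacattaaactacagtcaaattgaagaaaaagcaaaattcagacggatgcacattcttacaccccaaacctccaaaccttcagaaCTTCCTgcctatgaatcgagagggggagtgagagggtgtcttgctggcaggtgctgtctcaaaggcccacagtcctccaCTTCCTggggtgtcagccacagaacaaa
Trat1 (chr16:48772013-48772312, minus strand): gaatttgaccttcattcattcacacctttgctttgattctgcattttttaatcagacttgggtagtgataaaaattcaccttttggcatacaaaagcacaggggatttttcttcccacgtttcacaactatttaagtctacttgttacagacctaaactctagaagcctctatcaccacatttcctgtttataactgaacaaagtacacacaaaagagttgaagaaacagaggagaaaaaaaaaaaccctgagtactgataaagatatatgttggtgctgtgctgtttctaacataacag
Cd5 (chr19:10738925-10739224, minus strand): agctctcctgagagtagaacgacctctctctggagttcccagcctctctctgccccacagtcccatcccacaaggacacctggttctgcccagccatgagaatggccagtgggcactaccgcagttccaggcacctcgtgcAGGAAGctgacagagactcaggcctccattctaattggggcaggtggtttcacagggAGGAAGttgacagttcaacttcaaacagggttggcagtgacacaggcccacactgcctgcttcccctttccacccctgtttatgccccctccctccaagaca

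The start windows of Cd3e, Cd247 and Cd5 held 2 copies each of these letters and that of Trat1 held 0. RefSeq start windows were found for 32 of the 36 listed genes, 48 windows in all, some of which overlap within a gene. AGGAAG was in 62.5% of the members' windows and in 35.4% of all 32817 windows. It was present for 6 of the 10 members with a window that were at least 2-fold lower and for 14 of the 19 that were within 2-fold. Another 7 motifs were searched on both strands. The members' windows held the GC box GGGCGG in 43.8% of cases (35.6% of all windows), CACCC in 68.8% (57.5%), the longer ETS motif CCGGAAGT in 2.08% (3.89%), the RUNX motif TGTGGT in 14.6% (16.8%), the E-box CAGCTG in 12.5% (16.3%), the GATA motif AGATAA in 12.5% (11.2%) and TATAAA in 10.4% (13.6%). The motif CCGGAAGT holds GGAAG but not AGGAAG, and matches of different motifs may share bases at their ends. A match describes the letters only.

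All 4 CD3 and zeta chain genes were lower in KO cells, and the zeta chain gene more than the others. The α and β chains of the TCR are not among the members. Cd3d, Cd3g and Cd3e encode the δ, γ and ε chains, and they lie next to each other on chromosome 9. Cd3d read 15919.3 in KO cells and 24487.0 in WT cells, a log2 difference of -0.52. Cd3g read 9656.3 in KO and 17049.7 in WT (-0.72). Cd3e read 3382.8 in KO and 6210.6 in WT (-0.77). These neighbouring genes averaged -0.67 ± 0.13 (SD over the 3 genes), none of them 2-fold apart. Cd247, the zeta chain that carries most of the signalling motifs of the complex, read 4089.8 in KO and 10734.6 in WT, 2.44-fold lower. Its brightest probe set was at -1.29, with -1.25 and -1.14 in the others measured. A probe set of Cd247 that was below the floor on both arrays carried no value.

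The 3 kinases analysed were lower in KO cells. Fyn, a Src-family kinase, read 1965.5 in KO and 3708.0 in WT (-0.81), and its other probe set was at -0.71. Zap70, the kinase that docks on the phosphorylated chains, read 1384.4 in KO and 2932.3 in WT (-0.98), just inside the 2-fold line. Its other probe sets were at -0.91 and -1.71, and it lay past 2-fold in 5 of the 9 settings run. Txk, a Tec-family kinase of T cells, was the only member below the floor on an array: its single probe set read 46.3 in KO and 239.4 in WT, at least 3.40-fold lower when set against the floor.

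The 6 adaptors all lay below 0, and the transmembrane adaptor Trat1 had the largest difference of the list. Trat1 encodes TRIM, which associates with the TCR and zeta chain in the membrane. It read 796.4 in KO cells and 5327.3 in WT cells, 6.23-fold lower. Only 0.0493% of all genes measured on both arrays had a lower value. Its second probe set gave 198.7 in KO and 1845.5 in WT (-3.11), so both probe sets placed it well beyond 2-fold. Themis, a T-lineage protein that acts on the signal through GRB2 and SHP-1, read 2097.4 in KO and 5529.8 in WT (-1.30). Its other 3 probe sets were at -1.63, -1.18 and -0.76.

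The scaffold adaptors on the main route differed less. Lat, the membrane scaffold phosphorylated by ZAP-70, read 5218.1 in KO and 9424.5 in WT (-0.75). Lcp2, which encodes SLP-76, read 2845.4 in KO and 5356.1 in WT (-0.81), with -0.60 in its other probe set. Grap2 encodes GADS, the bridge between those proteins, and read 215.9 in KO and 374.7 in WT (-0.69), with -0.39 in its other probe set. By their brightest probe sets, these 3 partners of a single complex lay within a narrow range, each short of 2-fold. Nck1, an adaptor that links SLP-76 to the actin machinery and is expressed widely, read 554.4 in KO and 762.8 in WT (-0.36), and its other probe sets were at -0.60 and 0.25.

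Among the enzymes and exchange factors the members parted. Prkcq, protein kinase C-θ, which carries the signal of the TCR and CD28 towards NF-κB, read 3238.1 in KO cells and 8999.4 in WT cells, 2.59-fold lower. Malt1 and Bcl10 encode proteins that act together after it, on the route to NF-κB. Malt1 read 1125.5 in KO and 2015.5 in WT (-0.74), with -0.68 and -1.41 in its other probe sets. Bcl10 read 1830.8 in KO and 1715.2 in WT (0.20), and its 4 probe sets ran from 0.08 to 0.49. After centring, these partners were thus on opposite sides of 0 in every measured probe set. As deposited, the Bcl10 probe set at 0.08 read 792.1 in KO and 804.5 in WT. The 0.20 of the brightest Bcl10 probe set is smaller than the technical SD of 0.36.

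Plcg1, the phospholipase that makes the second messengers IP3 and diacylglycerol, read 2438.5 in KO and 4084.9 in WT (-0.64), from the only measured of its 3 probe sets. Averaged with the dim ones it was at -1.42. Rasgrp1, the Ras exchange factor that diacylglycerol recruits, read 7790.8 in KO and 11142.8 in WT (-0.41). Its average over all 4 probe sets, which takes in a dim one, was 0.00. The Vav proteins are guanine nucleotide exchange factors. Vav1, found across blood cells, read 1224.0 in KO and 1406.7 in WT (-0.10). Vav3, which B cells also use, read 573.1 in KO and 271.7 in WT (1.18), the only member at least 2-fold higher. Its second measured probe set went the other way, with 296.6 in KO and 368.1 in WT (-0.21), and another was below the floor on both arrays, so the direction for Vav3 rests on 1 probe set.

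**Figure D2:**
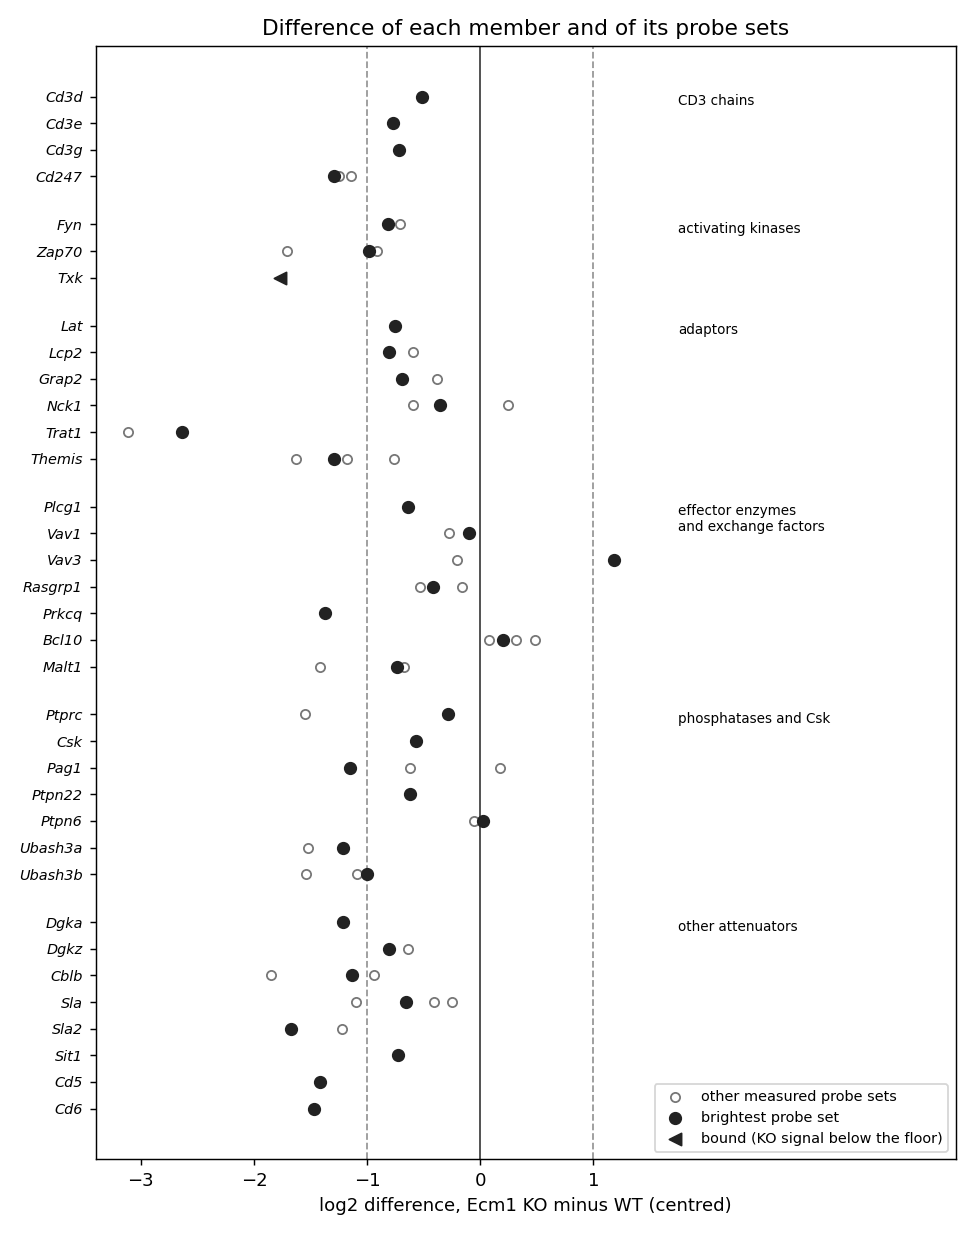
Centred log2 difference, Ecm1 KO minus WT (horizontal axis), of the brightest probe set of each member (filled circles), of its other probe sets measured on both arrays (open circles) and, for Txk, the bound against the floor (triangle); dashed lines mark 2-fold. Trat1 lies farthest left at -2.64, and Vav3 is the only filled circle beyond 2-fold on the right, with its open circle at -0.21.

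The proteins that act on the Src-family kinases and on tyrosine phosphorylation were mixed. Ptprc encodes CD45, the phosphatase of all white blood cells that keeps Src kinases ready to fire, and read 22264.5 in KO and 29052.3 in WT (-0.28). A dimmer Ptprc probe set was at -1.55, so the 2 disagreed by 1.27. Csk, the kinase that switches Src kinases off, read 3188.8 in KO and 5081.1 in WT (-0.57). Its membrane anchor Pag1 read 1811.3 in KO and 4328.9 in WT, 2.23-fold lower, although dimmer probe sets gave -0.62 and 0.17. With the next brightest probe set, or with probe sets averaged (-0.59), Pag1 was not 2-fold lower. Ptpn22, a phosphatase that works with Csk, read 3118.9 in KO and 5150.8 in WT (-0.62). Ptpn6, which encodes SHP-1 and is abundant in B and myeloid cells, read 2593.3 in KO and 2734.2 in WT (0.03).

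Both members of the UBASH3 family, phosphatase-like proteins that restrain TCR signalling, were lower. Ubash3a, found mainly in T cells, read 622.4 in KO and 1548.9 in WT (-1.21), with -1.52 in its other probe set. Ubash3b, which is expressed more widely, read 336.7 in KO and 725.1 in WT, 2.01-fold lower, with -1.09 and -1.54 in its other probe sets. The brightest probe set of Ubash3b lay on the 2-fold line and was just inside it after loess (-0.97) and quantile normalization (-0.99). The paralogs lay 0.21 apart by their brightest probe sets and 0.43 apart by their next brightest.

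The attenuators that act beside the phosphatases were the group with the lowest median. All 8 lay below 0 and 5 were past 2-fold on that side, with a median of -1.17, against -0.90 for the 2 measured kinases, -0.75 for the CD3 chains, -0.78 for the adaptors, -0.62 for the phosphatases with Csk and Pag1, and -0.41 for the enzymes and exchange factors. Differences between these groups were not tested. The scavenger-receptor family members Cd5 and Cd6, inhibitory receptors of T cells that also mark some B cells, lie next to each other on chromosome 19. Cd5 read 2787.6 in KO cells and 7977.0 in WT cells, 2.66-fold lower. Cd6 read 1283.5 in KO and 3807.4 in WT, 2.76-fold lower. The neighbours differed from each other by 0.05 on the log2 scale, each from a single probe set.

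Sla2 and Sla encode adaptors that lower the amount of TCR at the surface together with CBL. Sla2 read 157.0 in KO and 538.6 in WT, 3.19-fold lower, with -1.22 in its other probe set. Sla read 4678.7 in KO and 7935.4 in WT (-0.66), and its other probe sets were at -1.10, -0.41 and -0.25. This pair of paralogs lay 1.02 apart by their brightest probe sets and 0.12 apart by their next brightest, so the gap depends on the probe set. Diacylglycerol kinases remove the messenger that Rasgrp1 needs. Dgka read 4888.7 in KO and 12155.2 in WT (-1.21). Dgkz read 5442.0 in KO and 10222.2 in WT (-0.81), with -0.64 in its other probe set. Cblb, the ubiquitin ligase that restrains T cells lacking CD28 help, read 946.1 in KO and 2231.4 in WT (-1.13), with -1.85 and -0.94 in its other probe sets. Sit1, a transmembrane adaptor that dampens the signal, read 701.8 in KO and 1244.5 in WT (-0.72).

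Set against the neighbouring CD3 genes, the other members lay on both sides. Of the other 31 members measured on both arrays, 16 were lower than each of Cd3d, Cd3g and Cd3e, 8 lay among them and 7 were higher than each. The 16 included 6 of the 8 attenuators: Sla2, Cd6, Cd5, Dgka, Cblb and Dgkz. The others were Trat1, Themis, Prkcq, Cd247, Zap70, Ubash3a, Ubash3b, Pag1, Fyn and Lcp2. The 7 at the upper end were Vav3, Bcl10, Ptpn6, Vav1, Ptprc, Nck1 and Rasgrp1. Of these, 6 (all but Rasgrp1) belong to the members that B or myeloid cells, or most cells, also express. Members of that kind were 19 of the 34 measured. Among the 16 they were Sla2, Dgka, Dgkz, Cblb, Pag1, Ubash3b, Fyn and Lcp2.

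That division was made from general knowledge of where each gene is expressed, and it is not sharp. Of 15 measured members expressed mainly in T cells and T-like lymphocytes, all lay below 0 and 7 were past 2-fold on that side, with a median of -0.98. Of 19 members also expressed in B or myeloid cells or widely, 16 lay below 0, 5 were past 2-fold lower and 1 past 2-fold higher, with a median of -0.66. The lowest of the second class was Sla2 and the highest Vav3. Cd5 (-1.41) and Cd6 (-1.47) were placed in the first class although they also mark some B cells. With both in the second class, the medians would be nearly equal, at the values of Cd3e (-0.77) and Malt1 (-0.74). The difference between the classes was not tested.

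Markers of B cells, plasma cells and macrophages were higher in KO cells on the same arrays. Of 14 measured B cell markers, 5 were at least 2-fold higher in KO cells and all lay above 0 (median 0.85), and the list's summed signal in KO was 193% of that in WT. The plasma cell markers had 5 of 7 at least 2-fold higher (median 1.53, summed signal 218% of WT), and macrophage and monocyte markers 4 of 8 (median 1.04, 158% of WT). Such sums are dominated by the brightest probe sets: without Ctss the macrophage sum was 507% of WT. Defining B cell markers were well above the floor on both arrays, with Cd79a at 3015.1 in KO and 1701.6 in WT and Ms4a1 at 9420.5 in KO and 6290.0 in WT, while Pax5 was below the floor on both. Itgam, a defining macrophage marker, was below the floor on both arrays, and C1qa, C1qb, Mrc1 and Fcgr1 were above it in KO cells only. Of these, Fcgr1 was nearly equal on the arrays, at 73.5 in KO and 68.8 in WT. C1qa (68.1 in KO, 3.3 in WT) and Mrc1 (75.4 in KO, 2.3 in WT) were close to the floor in KO cells. On these B cell, plasma cell and macrophage lists, no measured marker had a log2 difference below 0. Of 5 measured natural killer markers, 3 were past 2-fold lower and 4 lay below 0, while Eomes was at 0.35. Their summed signal was 31.0% of WT, and 43.9% without Gzma, which T cells also express, and Ncr1 was below the floor on both arrays. Cd8b1, a CD8 marker, was at -1.19, from its single probe set. Of 10 mast cell and platelet markers, 7 did not reach the floor on either array. Among the other 3, the platelet and macrophage chemokine Pf4 read 877.8 in KO and 94.4 in WT (3.32), Cpa3 was at 0.56 and Itga2b at -0.32, and the list's summed signal was 257% of WT, or 116% without Pf4. The part of these cell types in the members' values was not tested.

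Most T cell markers outside the list were also lower in KO cells. The T cell transcripts Thy1 and Cd2 were well above the floor on both arrays. Thy1 read 11632.6 in KO and 20064.0 in WT, and Cd2 read 8099.9 in KO and 14245.6 in WT. The TCR chain gene Tcra was below the floor on both arrays, at 2 in KO and 10.6 in WT. Cd4 read 932.2 in KO and 3022.3 in WT, while Icos lay above 0 (0.29) and Gata3 was at -0.21. Of 14 measured T lineage markers, 7 were past 2-fold lower, none past 2-fold higher and 13 lay below 0, with a median of -1.01 and a summed signal in KO of 54.3% of that in WT. Of the 34 members, 11 were lower than that median and 23 were higher. Trat1 was lower than all 14 of those markers, the lowest of which was Cd27 at -2.53.

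Other components of the TCR pathway had a median nearer to 0. Of 83 measured genes on that list, 6 were past 2-fold lower (7.23%, against 4.45% of all genes), 1 past 2-fold higher (1.20%, against 7.15%) and 76 neither, with 59 below 0 and a median of -0.28. The lower ones were the coreceptor Cd4 (-1.59), the actin regulator Evl (-1.21), the NF-κB inhibitor Tnfaip3 (-1.14), the adaptor Fyb (-1.08), the adaptor Pstpip1 (-1.07) and the costimulatory receptor Cd28 (-1.03). The last 2 were named after their values were seen. Lax1, a transmembrane adaptor of T and B cells, read 1275.2 in KO and 529.2 in WT (1.37) and was the only one at least 2-fold higher. This list shares Cd2, Cd28, Cd4 and Skap1 with the T lineage markers. The difference between the proximal list and the wider pathway was not tested.

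**Figure D3:**
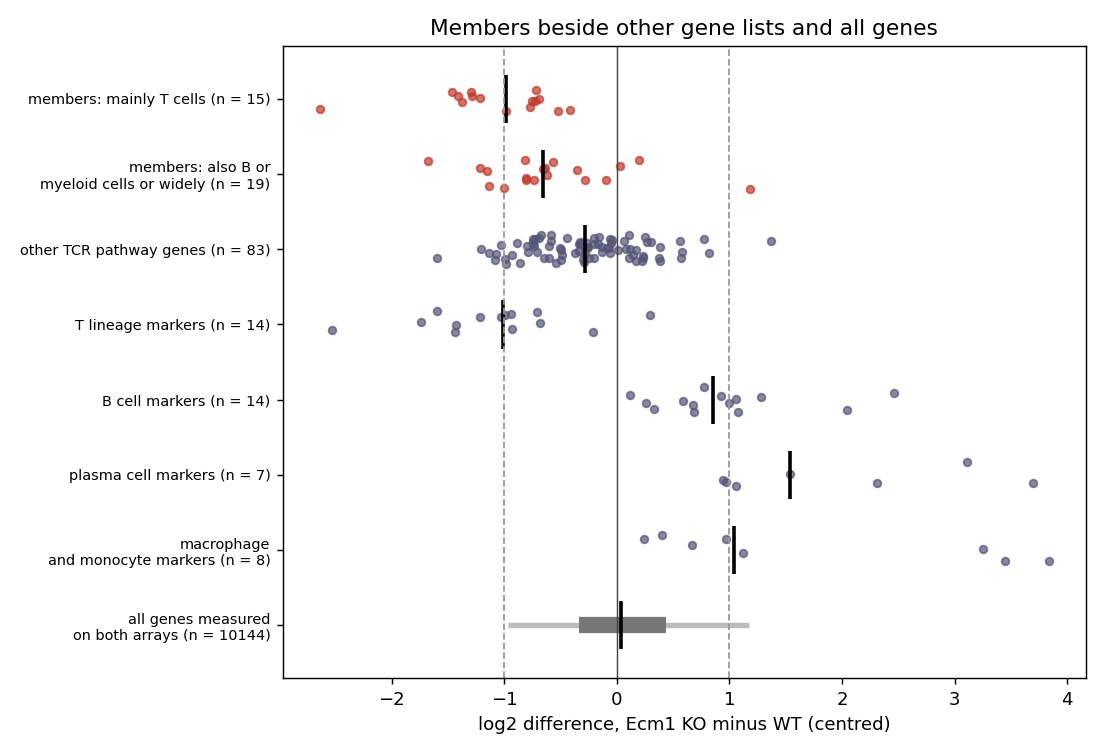
Centred log2 difference, Ecm1 KO minus WT (horizontal axis), of genes measured on both arrays, 1 point per gene, for the members in 2 classes (red), other gene lists (grey-blue) and all 10144 genes (thick bar, quartiles; thin bar, 5th to 95th percentile); black ticks are medians and dashed lines mark 2-fold. The member classes (medians -0.98 and -0.66) and T lineage markers (-1.01) lie left of 0, and B cell (0.85), plasma cell (1.53) and macrophage (1.04) markers right of it.

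Repeated probe sets gave the only internal check of the members. The members had 77 probe sets, 70 of them measured, of which 62 lay below 0, 26 were past 2-fold lower and 1 past 2-fold higher. In the 22 members with several measured probe sets, the next brightest lay below 0 in 21, and it had the same sign as the brightest in 20, the exceptions being Vav3 and Ptpn6. Over all measured probe sets, 18 of the 22 members had 1 sign throughout, and Nck1 and Pag1 joined the exceptions. The median gap between them was 0.26, with the widest gaps in Vav3 (1.39) and Ptprc (1.27). Of the 12 members at least 2-fold lower, 8 had several measured probe sets, and in 5 of those 8 every measured probe set was at least 2-fold lower. The other 4 rested on 1 measured probe set each: Prkcq, Dgka, Cd5 and Cd6.

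**Figure D4:**
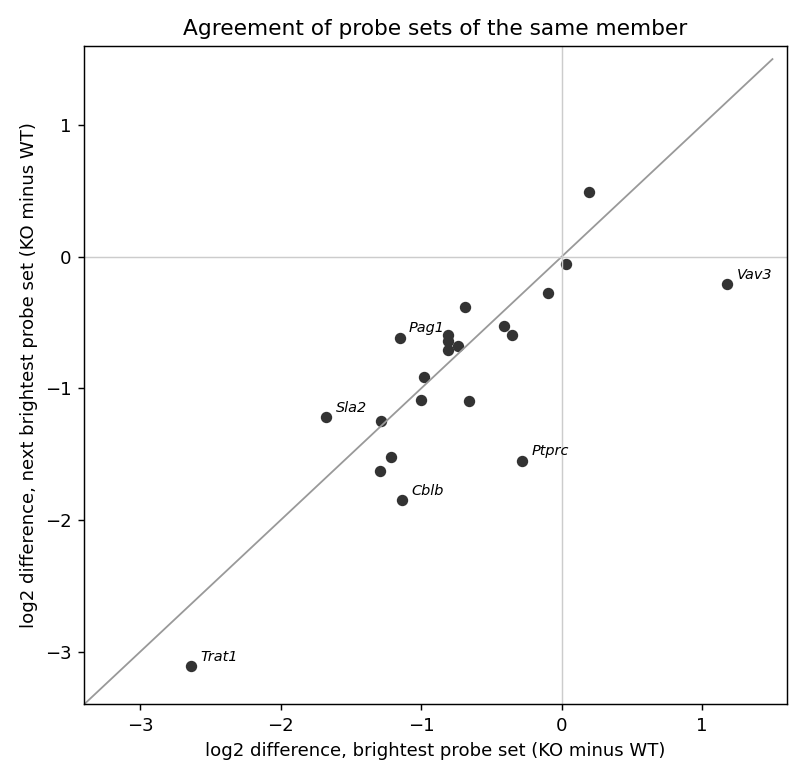
Log2 difference, Ecm1 KO minus WT, of the brightest probe set (horizontal axis) and the next brightest (vertical axis) for the 22 members with several probe sets measured on both arrays; the diagonal marks equal values and names mark gaps over 0.45. Most points lie near the diagonal below 0, with Vav3 and Ptprc farthest from it.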

How the data were processed

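The authors deposited linear signal intensity values, 1 per probe set and array, for a one-cycle Affymetrix assay of total RNA, per the labels' protocols. The sources used here name no summarisation software. Signals as deposited were globally scaled, with a mean of 500.004 over the central 96% of probe sets on both arrays. Control probe sets were left out. The platform annotation gave 1 gene symbol to 34958 probe sets. The floor was each array's median signal, and log2 differences had their median (-0.10) subtracted, taken over 20834 probe sets that reached the floor on both arrays. With 1 array per group no test was run, and counts past 2-fold are descriptions. The members and lists were chosen with earlier results of these data known. All members are named, with up to 4 genes each way from every other list, defining cell type markers and Ecm1. Genes named outside that rule, such as Pstpip1, Cd28, Ctss, Xist and Eif2s3y, were chosen after their values were seen. Calculations used Python 3.11.15, numpy 2.4.6, pandas 2.3.3 and statsmodels 0.14.6. The procedure was tried on simulated data, with differences larger than the members' median planted in bright genes only. That trial does not bear on smaller differences or on dim genes. Start-site sequences are RefSeq's. Alternatives were no centring, quantile normalization, loess (span 0.3), no floor, a floor at the 70th percentile, probe sets averaged, the next brightest probe set, and no _x_at or _s_at probe sets.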

Additional observations from a re-analysis of the deposited data

How the results depend on the processing

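No paired analysis was possible because only 2 arrays were used, 1 of each genotype. Over the 8 alternatives the members' median stayed between -0.94 (quantile normalization) and -0.72 (next brightest probe set), and 12 or 13 members were at least 2-fold lower. The count at least 2-fold higher was 0 with the floor at the 70th percentile and 0 with the next brightest probe set, since Vav3, the only such member, then had a signal below the floor or a difference of -0.21. Of 34 members, 31 kept their sign in every setting that gave a value, and Vav3, Rasgrp1 and Ptpn6 did not. Some settings could not move a value. No member's brightest probe set was of the _x_at or _s_at kind, so leaving those out changed no member. Members with a single probe set kept it in the next brightest setting. Without centring, the shift of all probe sets was -0.10. Depth is unknown for array signals, and dim genes such as Txk, Sla2 and Grap2 lie nearest the floor.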

Other observations

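As a list, genes that TCR signalling switches on did not share the direction of the receptor machinery after 4 days of culture. Of 26 measured genes on that list, 2 were past 2-fold lower in KO cells (7.69%, against 4.45% of all genes). Another 4 were past 2-fold higher (15.4%, against 7.15%) and 20 were neither, with 14 below 0 and a median of -0.07. Why the list differed from the receptor machinery was not tested. The higher ones were the transcription factor Irf4 (2.14), the early activation marker Cd69 (1.37), the cytokine Tnf (1.36) and the adhesion receptor Cd44 (1.29), all of which other blood cells also express. Lower ones were Bhlhe40 (-1.43) and Cd5, which is also on the proximal list, while Egr1 was at -0.92 and Dusp2 at -0.74. The other 5 genes of the list were below the floor on both arrays.

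Cell division genes were higher, with 3 of 16 measured at least 2-fold higher, all 16 above 0 and a median of 0.73, led by Mcm5 (1.39). No test was run on these values.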
